A study of Danio rerio with 48 samples.

Results

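The cryptochromes and photolyase relatives of the zebrafish retina were followed through 28 days of continuous light. The family was taken by name: cry1aa, cry1ab, cry1ba, cry1bb, cry2, cry4, cry5 and cry-dash, which are 8 of the 15245 genes in the table. All 8 were tested, although cry4 passed the low-value filter (5 or more in 6 or more libraries) with exactly 6 libraries.

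Retinas came from left eyes of albino (alb) zebrafish aged 6 to 9 months, a line without eye pigment, and each of the 48 libraries held the retina of 1 fish. Every fish had lived under a daily cycle of 14 h in light of 250 lux and 10 h in darkness, and was then dark-adapted for 24 h. The 0 h group was taken at the end of that dark period. The other 7 groups were taken after 24, 36 or 72 h (hpl) or 5, 10, 14 or 28 days (dpl) of unbroken light of about 5000 lux from halogen lamps, with 6 fish per group. Thus 36 hpl was the only light time-point that was not a whole number of days after light onset, and the clock hour of collection was not given. The dissection could carry pigment epithelium and vitreous along with the neural retina. The study ran 2 rounds of light treatment with 3 fish per time-point in each, but the round of a library was not given. Libraries were therefore split by replicate number, 1 to 3 and 4 to 6, into 2 sets of 3 per time-point. That these sets match the rounds is an assumption. The set was a term in the model unless stated otherwise. The 2 libraries named A at 0 h belong to that group by their labels but carry no settled replicate number. They were placed in a set by a suffix of their column names, which goes with the set in the other 46 columns, whereas the sample descriptions attach the same suffix to the other set, so their set is unsettled.

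Values are pseudocounts, read counts at transcript 3′ ends that the authors adjusted to a common library size, with library totals of 1629375 to 1634449. Because totals were equalised before deposit, the sequencing depth behind a single value is unknown. In whole-retina RNA, fewer cells of a type and less RNA per cell cannot be told apart.

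Cryptochromes and photolyases descend from a common flavin-binding ancestor. Photolyases use light energy to undo ultraviolet lesions in DNA, whereas animal cryptochromes mostly lost that activity and took up a role in the circadian clock. There the Clock and Bmal (arntl) proteins switch on period and cryptochrome genes through E-box elements, and Period and Cryptochrome proteins return to silence Clock and Bmal. In zebrafish this loop runs in most tissues, the retina included, and light itself reaches the clock in these tissues by inducing particular genes, per2 and cry1a among them, partly through D-box elements.

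Zebrafish cryptochrome names have changed, so the symbols need care. In the RefSeq gene table used for names (assembly GRCz12tu), cry1aa is cry1a and cry1ab is cry1b, cry1ba is cry3a (formerly cry2a) and cry1bb is cry3b (formerly cry2b). These 4 are the zebrafish cryptochromes known to repress Clock and Bmal in cell assays. The row named cry2 has cry3 as a synonym, and together with cry4 it lacked that repressor activity in the same kind of assay. The gene cry5 has the synonym z6-4phr and encodes the (6-4) photolyase, and cry-dash encodes a DASH protein, a type known to repair pyrimidine dimers in single-stranded DNA. In that assembly cry1bb and cry4 lie on the same chromosome with 2 protein-coding genes starting between them. How the authors' counting treated reads shared by close paralogs was not given in the sources used here, so the split between members of a pair is uncertain to that extent.

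**Figure D1:**
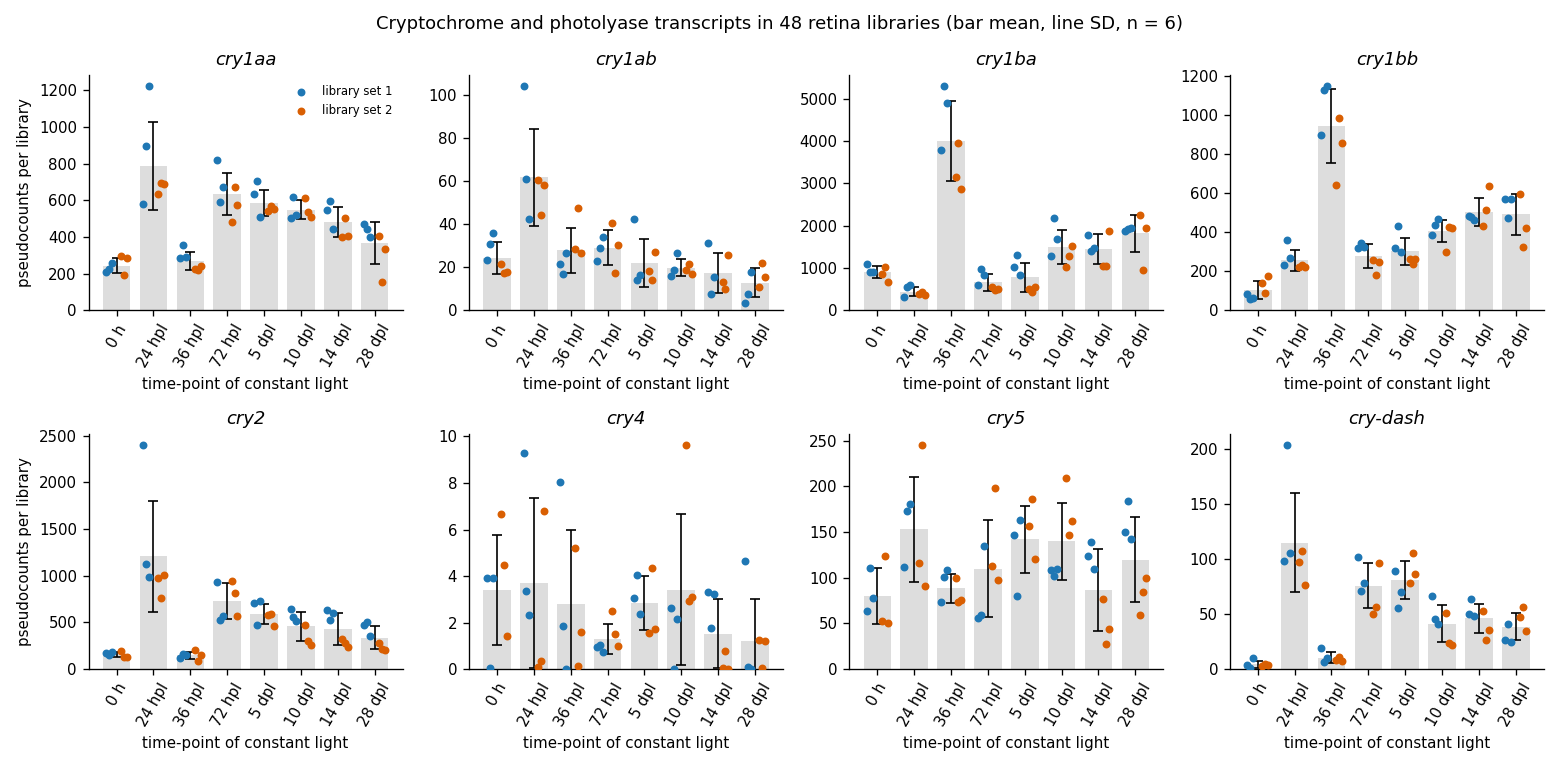
Pseudocounts of each gene (vertical axis, linear from 0, its own scale per panel) at the 8 time-points (horizontal axis); bars are means, lines SD with n = 6, and points single libraries coloured by library set. cry1aa, cry2 and cry-dash stood high at 24 hpl and low at 36 hpl, cry1ba and cry1bb peaked at 36 hpl with means of 3995 and 942, and cry4 stayed under 10 in every library.

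Most of the family differed among the time-points. By an F test over all 8 time-points in limma, 7 of the 8 genes differed, where 32.3% of all 11395 tested genes did. The F value was 57.8 for cry1ba, 55.1 for cry-dash, 49.97 for cry1bb, 42.7 for cry2, 26.2 for cry1aa and 8.52 for cry1ab. It was 2.96 for cry5, with an adjusted p of 0.0389 that went above 0.05 when any of 16 of the 48 libraries was left out (0.0506 to 0.0683), and 1.04 for cry4 (adjusted p = 0.516). The span from lowest to highest group mean was 26.2-fold for cry-dash, 9.25-fold for cry1bb, 9.12-fold for cry1ba and 8.27-fold for cry2, against 4.79-fold for cry1ab, 3.23-fold for cry1aa and 1.91-fold for cry5.

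Of the clock repressors, cry1aa rose with light, fell back at 36 hpl and rose again. At 0 h its 6 libraries ran from 191 to 297 with a median of 241, and at 24 hpl from 582 to 1224 with a median of 694, so every lit retina was above every dark-adapted one. At 36 hpl the range was 219 to 355 (median 261) and overlapped that of 0 h, and at 72 hpl it was 484 to 820 (median 630). The fitted log2 change from 0 h was 1.66 ± 0.17 (SE; adjusted p = 8.04e-11) at 24 hpl and 1.38 ± 0.17 at 72 hpl (adjusted p = 1.27e-08). At 36 hpl it was 0.14 ± 0.17 (adjusted p = 0.695), with a 95% interval of -0.20 to 0.47.

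The cry1aa group mean was 636 ± 114 (SD, n = 6) at 72 hpl. At 5, 10, 14 and 28 dpl it was 586 ± 71.9, 550 ± 52.8, 484 ± 81.1 and 368 ± 115 respectively, all above the 0 h mean of 244 ± 41.9. In the order of its levels (24 hpl, 72 hpl, 5, 10, 14 and 28 dpl, 36 hpl, 0 h) no 2 neighbours differed by the test. The 28 dpl value was 0.52 ± 0.17 above 0 h on the log2 scale (adjusted p = 0.0323). That call was lost, at 0.45 to 0.52, when any of 9 libraries was left out: library A of set 1 and replicates 2, 3 and 5 at 0 h, and every 28 dpl replicate except number 5. It was also lost under both rescalings of the libraries, with time-point alone, with the replicate block (0.55, adjusted p = 0.0638) and without the 0 h libraries of unsettled replicate. Within library set 2 alone the value was 0.12 (adjusted p = 0.806), against 0.93 in set 1. Replicate 5 itself held 153, below the lowest 0 h library, while the other 28 dpl retinas held 334 to 471. Without it the value was 0.74.

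The paralog cry1ab, at a lower level, was called higher than 0 h at 24 hpl only and called lower at 28 dpl, the latter in library set 1 but not in set 2. Its 0 h libraries ran from 17.4 to 36.0 (median 22.5) and its 24 hpl libraries from 42.2 to 104 (median 59.2), with no overlap. At 36 hpl they were 16.9 to 47.6 and at 72 hpl 17.3 to 40.6, both across the 0 h range. The change at 24 hpl was 1.28 ± 0.33 (adjusted p = 0.00407), and 36 hpl was lower than 24 hpl by a log2 change of -1.12 ± 0.33 (adjusted p = 0.0102).

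At 5, 10, 14 and 28 dpl the means of cry1ab were 22.1 ± 11.1, 19.7 ± 3.87, 17.2 ± 9.21 and 12.9 ± 6.79, and 28 dpl against 0 h was -1.01 ± 0.33 (adjusted p = 0.0349). The 28 dpl libraries spread from 3.46 to 21.8 and overlapped those of 0 h, and the call was lost (-1.01 to -0.72) without library A of set 1 or replicates 2 or 3 at 0 h, or replicates 1, 2 or 4 at 28 dpl. The value was -1.77 in library set 1 alone and -0.26 in set 2 alone (adjusted p = 0.0351 and 0.734), and the call was lost with the replicate block (-1.08, adjusted p = 0.0756) and without the 0 h libraries of unsettled replicate. Among neighbours in the order of its levels, only 24 and 72 hpl, the highest 2, differed.

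The pair cry1ba and cry1bb behaved otherwise, with its maximum at 36 hpl. For cry1ba, 0 h libraries held 675 to 1086 (median 900) and 24 hpl libraries only 307 to 589 (median 405). At 36 hpl they held 2872 to 5300 (median 3880), above every library of every other group, and at 72 hpl 487 to 988 (median 570). The dark-adapted retinas thus stood between the low 24 hpl and the high 36 hpl retinas without overlap with either.

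The fitted change of cry1ba from 0 h was -1.07 ± 0.19 at 24 hpl (adjusted p = 2.36e-05) and 2.12 ± 0.19 at 36 hpl (adjusted p = 1.84e-12). At 72 hpl it was -0.50 ± 0.19 (adjusted p = 0.0633), and it passed the threshold when library values were rescaled by median-of-ratios (-0.56, adjusted p = 0.0265) or when 24 hpl replicate 1, 72 hpl replicate 2 or 28 dpl replicate 5 was left out. It was the only member called lower than 0 h at 24 hpl. From 24 to 36 hpl the rise was 9.12-fold (log2 3.19 ± 0.19, adjusted p = 1.12e-18), the 18th largest positive change of 11395 genes.

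At 5 dpl cry1ba had a mean of 779 ± 348 and did not pass the test against 0 h (-0.32 ± 0.19, adjusted p = 0.364). Its means at 10, 14 and 28 dpl were 1496 ± 397, 1439 ± 353 and 1818 ± 439. Against 0 h, 10 dpl was higher by 0.69 ± 0.19 (adjusted p = 0.0114), 14 dpl by 0.64 ± 0.19 (adjusted p = 0.021) and 28 dpl by 0.97 ± 0.19 (adjusted p = 0.000166). The 10 dpl call was lost under both rescalings (0.53 to 0.54). The 14 dpl call was lost (0.51 to 0.60) without replicate 2, 3 or 6 at 0 h or replicate 6 at 14 dpl. At 28 dpl 5 retinas held 1880 to 2242 and replicate 5 held 962, inside the 0 h range, and without it the value was 1.102.

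For cry1bb, every light time-point was above the dark level. Its 0 h libraries held 59.2 to 176 (median 86.2), and the lowest library of any light group held 181. At 24 hpl the range was 222 to 362 (median 231), at 36 hpl 640 to 1148 (median 939), and at 72 hpl 181 to 345 (median 289). The change from 0 h was 1.41 ± 0.19 (adjusted p = 1.67e-07) at 24 hpl, 3.28 ± 0.19 (adjusted p = 1.73e-18) at 36 hpl and 1.52 ± 0.19 (adjusted p = 3.37e-08) at 72 hpl. Within library set 2 alone the 24 and 72 hpl calls were lost (0.78 at both, adjusted p = 0.0609 and 0.0549), while set 1 alone had 2.04 and 2.26. The 36 hpl change was 9.72-fold, 20th from the top of all tested genes.

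At 5, 10, 14 and 28 dpl the means of cry1bb were 302 ± 70.2, 406 ± 58.4, 502 ± 72.4 and 493 ± 105, with log2 changes of 1.64, 2.08, 2.39 and 2.34 from 0 h, all called. In the order of its levels, the highest group (36 hpl) differed from the next (14 dpl), the lowest (0 h) differed from the one above it (24 hpl), and no other neighbours differed.

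**Figure D2:**
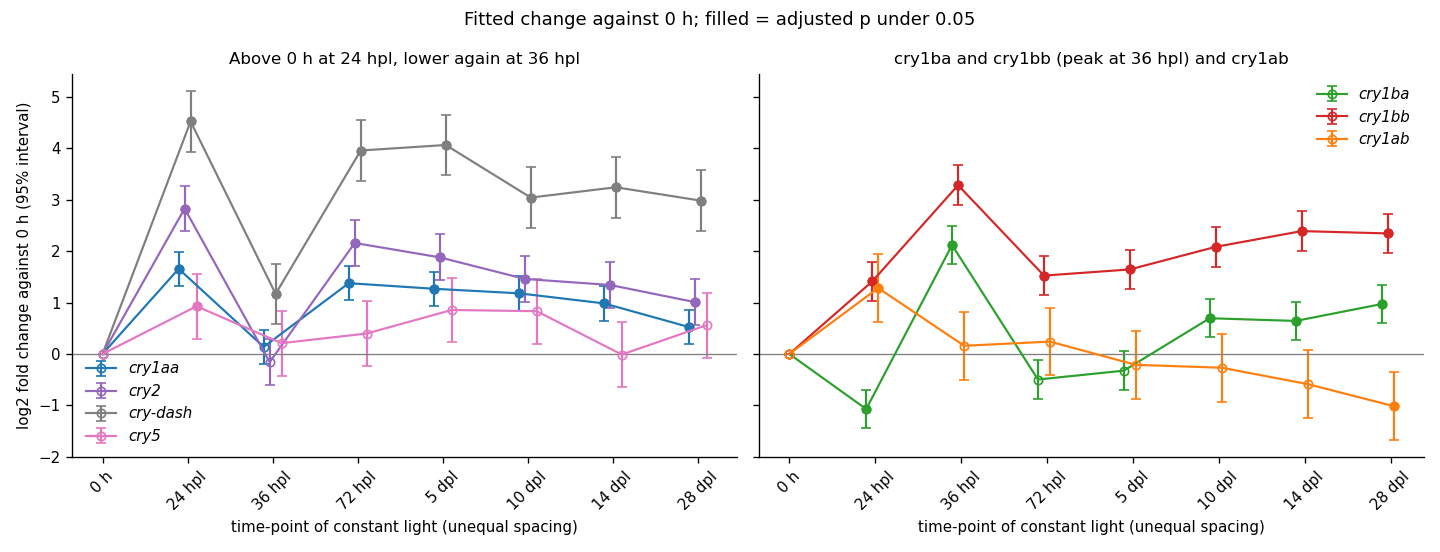
Fitted log2 fold change against 0 h (vertical axis) with 95% intervals at each time-point (horizontal axis, spacing not to scale); filled points passed an adjusted p of 0.05, and all points share the 0 h libraries. Left, cry-dash, cry2 and cry1aa dropped from 4.52, 2.83 and 1.66 at 24 hpl to 1.17, -0.16 and 0.14 at 36 hpl, and right, cry1ba and cry1bb reached 2.12 and 3.28 there.

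The cryptochromes without repressor activity parted into one strongly changing and one barely detected gene. Libraries at 0 h held 125 to 197 of cry2 (median 160) and those at 24 hpl 766 to 2401 (median 996). The range was 83.6 to 207 (median 152) at 36 hpl, across that of 0 h, and 526 to 942 (median 694) at 72 hpl. All 24 hpl and 72 hpl retinas were thus above all dark-adapted and all 36 hpl retinas. The log2 change from 0 h was 2.83 ± 0.22 at 24 hpl (7.09-fold, adjusted p = 2.8e-14), -0.16 ± 0.22 at 36 hpl (adjusted p = 0.746, 95% interval -0.60 to 0.29) and 2.16 ± 0.22 at 72 hpl (adjusted p = 1.83e-10).

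At 5, 10, 14 and 28 dpl the means of cry2 were 590 ± 111, 457 ± 152, 431 ± 175 and 337 ± 126. Each was still above 0 h (1.88, 1.46, 1.34 and 1.01 on the log2 scale, all called). Within library set 2 alone the last 2 calls were lost, at 0.88 for 14 dpl (adjusted p = 0.059) and 0.63 for 28 dpl (adjusted p = 0.149), against 1.81 and 1.39 in set 1. In both sets together every retina of these groups was above every 0 h retina. In the order of its levels, only 28 dpl and 0 h differed among neighbours. For cry4, 6 of 48 libraries reached 5, the highest held 9.61 and 3 were listed at 0, and no comparison of it passed the test at this depth.

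The repair enzymes differed in how much they moved. The DASH gene cry-dash was nearly silent in the dark-adapted retina, with 1.103 to 9.78 (median 3.88) at 0 h. It held 76.7 to 204 (median 102) at 24 hpl, 6.53 to 19.5 (median 9.35) at 36 hpl and 50.6 to 102 (median 74.6) at 72 hpl. The 24 hpl libraries were far above those of 0 h and of 36 hpl, and the 36 hpl and 0 h ranges overlapped. On the log2(value + 1) scale, which understates the change of low genes, the 24 hpl change was 4.52 ± 0.29 (adjusted p = 5.33e-17), sixth from the top of all tested genes. It was 1.17 ± 0.29 at 36 hpl (adjusted p = 0.00377) and 3.96 ± 0.29 at 72 hpl (adjusted p = 8.71e-15). The 36 hpl call was lost within either library set alone (1.33 in set 1 with an adjusted p of 0.0562 and 1.002 in set 2 with 0.131, by limma with 3 libraries per group).

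The level of cry-dash stayed above that of 0 h to the end. Its means were 80.8 ± 17.2, 41.5 ± 17.01, 46.2 ± 13.3 and 38.5 ± 12.2 at 5, 10, 14 and 28 dpl, with log2 changes of 4.06, 3.04, 3.24 and 2.98. Each of these groups lay above the 0 h and the 36 hpl libraries without overlap. At 10, 14 and 28 dpl every library was below every 24 hpl library. Among neighbours in its order, 28 dpl differed from 36 hpl and 36 hpl from 0 h.

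The (6-4) photolyase gene cry5 changed least among the genes called. Its 0 h libraries held 50.8 to 124 (median 70.8), those at 24 hpl 90.6 to 245 (median 145), those at 36 hpl 73.7 to 108 and those at 72 hpl 55.8 to 198. Ranges overlapped in every pair of time-points. The change at 24 hpl was 0.93 ± 0.31 (adjusted p = 0.0353), at 5 dpl 0.85 ± 0.31 (adjusted p = 0.086) and at 10 dpl 0.83 ± 0.31 (adjusted p = 0.101). The 24 hpl call was lost (0.76 to 0.92, adjusted p = 0.056 to 0.102) without either library A or replicate 3 or 6 at 0 h, or replicate 2, 3 or 5 at 24 hpl. The 5 dpl value passed without 0 h replicate 5 or 5 dpl replicate 2, and the 10 dpl value without 0 h replicate 5.

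Counted over the family, 7 of 8 genes were called at 24 hpl against 0 h, beside 15.5% of all genes tested, with 6 higher (8.37% of all genes) and 1 lower (7.14%). At 36 hpl 3 were called (13.5% of all genes), namely cry1ba, cry1bb and cry-dash, all higher (9.66%) and none lower (3.8%). At 72 hpl 4 were called (14.9% of all genes), namely cry1aa, cry1bb, cry2 and cry-dash, all higher (9.2%) and none lower (5.7%), or 4 higher and 1 lower under the median-of-ratios rescaling. The same 4 genes were called, again higher, at 5 dpl, where 8.58% of all genes were called, 6.49% higher and 2.09% lower. With cry1ba, 5 were called higher at 10 dpl (7.92% of all genes, 6.41% higher and 1.51% lower) and 5 at 14 dpl (7.9% of all genes, 5.59% higher and 2.31% lower). At 28 dpl 6 were called (11% of all genes), 5 higher (7.74%) and cry1ab lower (3.26%).

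By the separation of single libraries, 5 genes had every 24 hpl retina above every 0 h retina (3.98% of all genes) and cry1ba had every one below (2.92%). At 36 hpl 2 genes lay wholly above 0 h (4.71% of all genes). At 72 hpl 4 did (3.61%), and so did 4 at 5 dpl (4.46%). The count was 4 at 10 dpl (3.89%), also 4 at 14 dpl (3.67%) and 3 at 28 dpl (4.19%). These comparisons share the 0 h libraries. The median log2 change over the 8 genes was 1.35 at 24 hpl, 0.18 at 36 hpl and 0.89 at 72 hpl, against -0.07, 0.13 and 0.03 over all tested genes.

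The comparisons of 36 hpl with its neighbours showed the opposed courses directly. Against 24 hpl, 6 of 8 genes were called, 2 higher and 4 lower, where 20.4% of all genes were, 13.8% higher and 6.52% lower. Against 72 hpl, 5 were called, 2 higher and 3 lower (8.47% of all genes, 4.88% higher and 3.59% lower), and against the mean of both 5 again, 2 higher and 3 lower (14.3% of all genes, 8.87% higher and 5.41% lower). A call in both comparisons in the same direction was met by cry1aa, cry1ba, cry1bb, cry2 and cry-dash, and by 6.2% of all genes.

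For cry-dash the log2 change was -3.35 ± 0.29 against 24 hpl (adjusted p = 9.06e-13) and -2.79 ± 0.29 against 72 hpl (adjusted p = 4.25e-10). For cry2 it was -2.98 ± 0.22 and -2.32 ± 0.22 (adjusted p = 3.7e-15 and 2.57e-11), and for cry1aa -1.52 ± 0.17 and -1.24 ± 0.17 (adjusted p = 6.23e-10 and 1.97e-07). These 3 genes were lower at 36 hpl in 6 of 6 libraries than in any of the 12 libraries of 24 and 72 hpl, a separation that 1.11% of all genes showed.

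For cry1ba the change against 72 hpl was 2.61 ± 0.19 (adjusted p = 3.17e-15). For cry1bb the changes were 1.87 ± 0.19 against 24 hpl and 1.76 ± 0.19 against 72 hpl (adjusted p = 9.2e-11 and 1.05e-09). Both were higher at 36 hpl in 6 of 6 libraries than in all 12 neighbours, as 1.47% of all genes were. Of the remaining genes, cry1ab differed from 24 hpl but not from 72 hpl (-0.08 ± 0.33, adjusted p = 0.926), and cry5 had -0.72 ± 0.31 against 24 hpl (adjusted p = 0.102), which passed under both rescalings (-0.92, adjusted p = 0.021 and 0.0255). Between 24 and 72 hpl, 1 gene was higher and 1 lower (7.73% of all genes called, 5.84% higher and 1.89% lower): cry1ba by 0.57 ± 0.19 (adjusted p = 0.0464), lost when any of 13 libraries was left out (0.43 to 0.61), and cry1ab by -1.04 ± 0.33 (adjusted p = 0.039), lost with any of 8 (-1.06 to -0.87). Under both rescalings the split was 0 higher and 2 lower, cry2 in place of cry1ba.

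**Figure D3:**
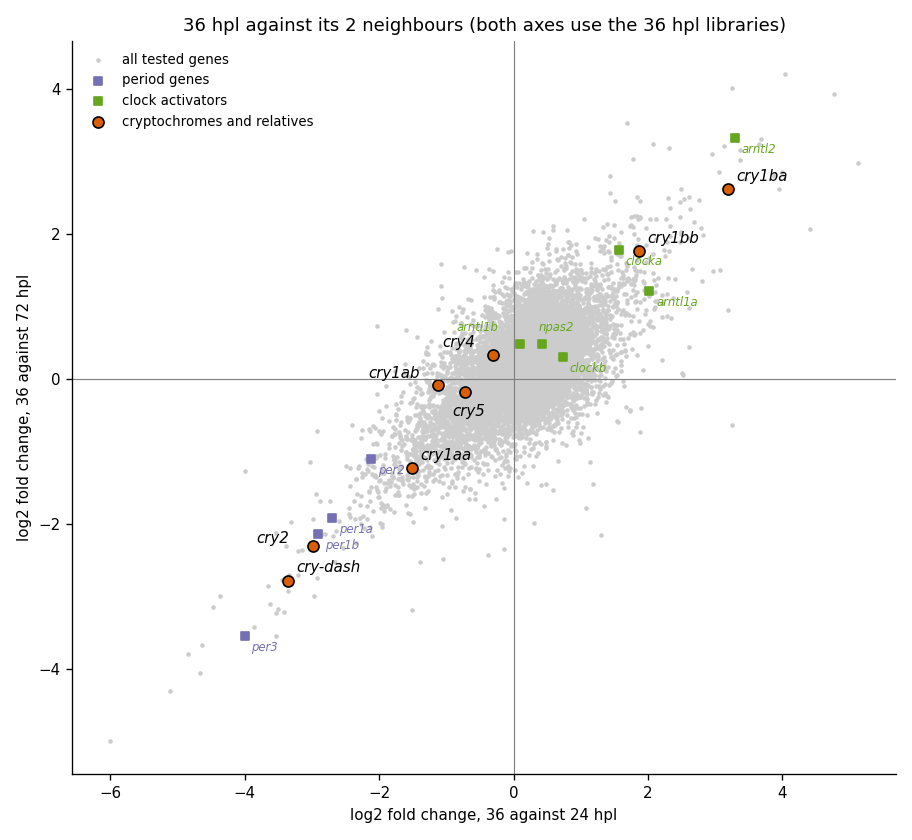
Log2 fold change at 36 hpl against 24 hpl (horizontal axis) and against 72 hpl (vertical axis) for all 11395 tested genes (grey), the 8 family members (orange), period genes and clock activators (squares). Both axes use the 36 hpl libraries, so a diagonal cloud is built in; cry1ba and cry1bb lie at the upper right (3.19 and 2.61; 1.87 and 1.76), cry2 and cry-dash at the lower left near the period genes, and cry4 and cry5 near the centre.

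Against the mean of 24 and 72 hpl, the 36 hpl changes of the called genes were close in size in both library sets. In this comparison cry1ba changed by 2.93 in set 1 and 2.88 in set 2, cry1bb by 1.78 and 1.85, cry2 by -2.71 and -2.59, cry-dash by -3.10 and -3.04, and cry1aa by -1.32 and -1.44. Of the uncalled genes, cry1ab had -0.98 in set 1 and -0.22 in set 2, and cry5 -0.21 and -0.69. By limma's interaction test, 0 of the 8 genes were called as different between sets in this comparison, beside 0.00878% of all genes. At an unadjusted p under 0.05 the count was also 0, a threshold at which no share of all genes was taken. For 24 hpl against 0 h, also 0 of 8 were called (0.00878% of all genes). There 1 gene had an unadjusted p under 0.05, again without a share of all genes at that threshold. This was cry1bb, with 2.04 in set 1 and 0.78 in set 2. Its difference was -1.26 ± 0.30 by limma (unadjusted p = 0.000152, adjusted p = 0.402). Its 0 h means were 68.6 in set 1 and 135 in set 2, with the A libraries placed by suffix. The numbered 0 h libraries held 59.2 and 65.2 in set 1 and 91.0 and 176 in set 2. Set 2 was lower than set 1 overall for cry2 (-0.45 ± 0.11), cry1ba (-0.44 ± 0.09) and cry1aa (-0.25 ± 0.08), 3 of 8 genes, where 24.9% of all genes differed between sets, 14.9% higher and 9.95% lower in set 2.

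Fits within 1 set, with 3 libraries per group, lost further calls. In set 2 alone cry1aa at 14 dpl was 0.78 above 0 h (adjusted p = 0.0569) and cry1ba at 10 dpl 0.59 (adjusted p = 0.267). The 14 dpl call of cry1ba was lost in either set (0.69 in set 1 and 0.60 in set 2, adjusted p = 0.102 and 0.18), as was the 24 hpl call of cry5 (0.88 and 0.97, adjusted p = 0.06 and 0.165). The 24 hpl call of cry1ab was lost in set 1 (1.097, adjusted p = 0.174), and its call at 36 against 24 hpl in set 2 (-0.68, adjusted p = 0.416). Both calls between 24 and 72 hpl were lost in either set.

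Within single libraries the balance between the transcripts moved. Such ratios compare 3′-end tags, which were not divided by transcript length, so a ratio is described here by how it moved across time-points. The ratio of cry1ba to cry1bb had a median of 12.3 at 0 h (3.84 to 15.2), 1.70 at 24 hpl (1.33 to 2.19), 4.25 at 36 hpl (3.35 to 4.92) and 2.33 at 72 hpl. At 0 h all libraries placed in set 1 lay above all placed in set 2. The ratio of cry2 to cry1ba ran from 0.18 at 0 h to 2.26 at 24 hpl, 0.03 at 36 hpl and 1.34 at 72 hpl (medians), and was 0.20 at 28 dpl. Its 24 hpl range (1.68 to 7.82) lay above its 0 h range (0.13 to 0.23), and its 36 hpl range (0.02 to 0.07) below. The ratio of cry1aa to cry1ab had a median of 9.99 at 0 h and about 30 from 5 dpl on, with a range of 7.02 to 136 at 28 dpl.

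**Figure D4:**
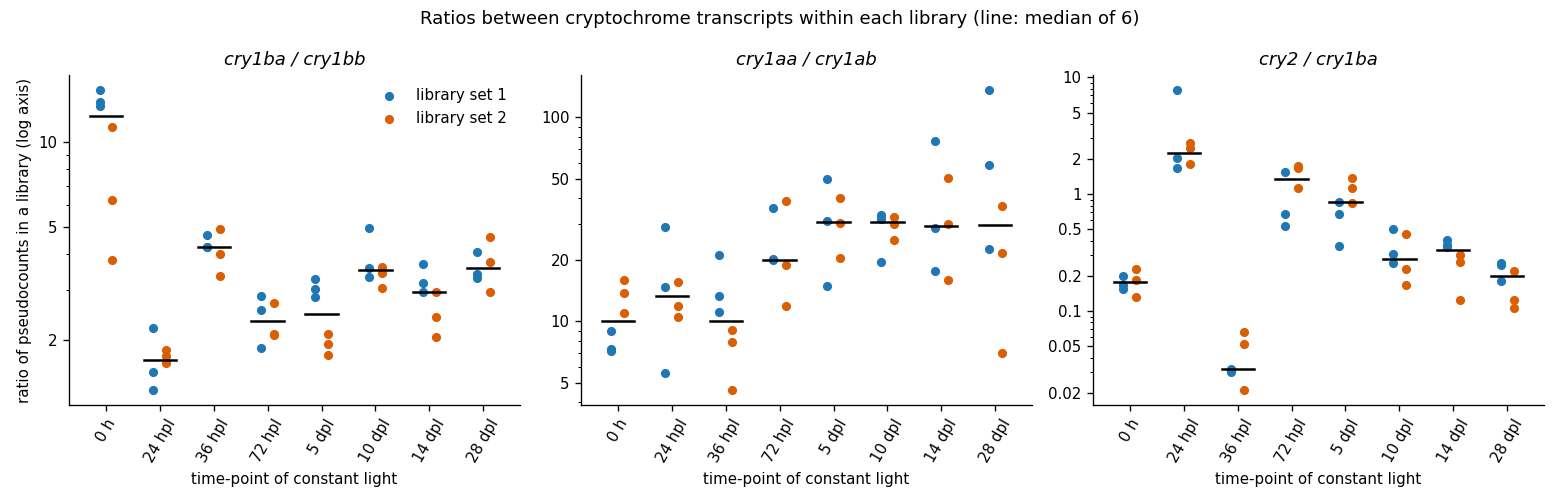
Ratio of the pseudocounts of 2 genes in the same library (vertical log axis) by time-point, with points coloured by library set and lines at the median of 6. The ratio of cry2 to cry1ba had medians of 2.26 at 24 hpl and 0.03 at 36 hpl, and that of cry1ba to cry1bb medians of 12.3 at 0 h and 1.70 at 24 hpl.

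At the end of the course, members of the family differed from their 5 dpl levels in opposed directions. Between 5 and 28 dpl, 5 of 8 genes were called, 2 higher and 3 lower, where 1.38% of all genes were, 0.544% higher and 0.834% lower. Higher at 28 dpl were cry1ba (1.29 ± 0.19, adjusted p = 1.72e-05) and cry1bb (0.70 ± 0.19, adjusted p = 0.0485). Lower were cry1aa (-0.74 ± 0.17, adjusted p = 0.00978), cry2 (-0.87 ± 0.22, adjusted p = 0.0292) and cry-dash (-1.08 ± 0.29, adjusted p = 0.0463). The 5 and 28 dpl libraries overlapped for cry1ba, cry1bb, cry2 and cry-dash.

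Only the cry1ba change kept its call whichever single library was left out. For cry1aa it was lost without 28 dpl replicate 5 (-0.53, adjusted p = 0.0639), and for cry2 without any of 8 libraries, namely 5 dpl replicates 1, 3, 4, 5 and 6 and 28 dpl replicates 3, 5 and 6 (-0.89 to -0.79). The cry-dash call was lost without any of 15 libraries (adjusted p = 0.05 to 0.118) and the cry1bb call without any of 28 (0.0505 to 0.109), several of them from other time-points that only share the estimate of spread. Within set 1 alone no gene was called, with 0.87 for cry1ba (adjusted p = 0.1) and -0.48 for cry1aa (adjusted p = 0.399). Within set 2 alone the cry1ba change was 1.71 (adjusted p = 0.00129).

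Correlations across libraries restate these courses and rest in part on the 36 hpl libraries. Pearson correlations of log2 values over the 48 libraries, with set means removed, are descriptive, since libraries share time-point effects. They were 0.84 for cry2 with cry-dash, 0.83 for cry2 with cry1aa, 0.80 for cry1aa with cry-dash and 0.69 for cry1ba with cry1bb. Between the groups, cry1ba had -0.73 with cry2, -0.55 with cry1aa and -0.51 with cry-dash. Without the 36 hpl libraries cry1ba with cry2 was -0.60 and cry1ba with cry1bb 0.49. Over those libraries cry1bb turned from -0.14 to 0.28 with cry2, from 0.05 to 0.43 with cry1aa and from 0.15 to 0.54 with cry-dash, above its value with cry1ba. No pair with cry1ab, cry4 or cry5 went past 0.43 in size over all 48 libraries. The pair cry1ab and cry1ba went from -0.39 to -0.65 when the 36 hpl libraries were left out.

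The genes most alike over the 48 libraries, by the same correlation across all tested genes, differed by group. For cry2 they were ciarta (0.94), a clock-associated repressor gene, si:ch211-132b12.7 (0.94) and arg2 (0.91), a mitochondrial arginase gene. For cry-dash they were cox17 (0.91), hmox2a (0.90), a heme oxygenase gene, and per2 (0.89), the light-induced period gene. For cry1aa they were rcvrn3 (0.90), a recoverin gene, ndfip2 (0.89) and camk1db (0.87). For cry1ba they were aanat2 (0.93), which encodes the rate-setting enzyme of melatonin synthesis, fus (0.92), an RNA-binding protein gene, and ndrg3b (0.90), and for cry1bb pnp4a (0.85), cdkn1a (0.82), a cell-cycle inhibitor gene, and zgc:158404 (0.78). The closest gene reached 0.75 for cry1ab (smox), 0.74 for cry5 (dhrs13a.3) and 0.56 for cry4 (lurap1).

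**Figure D5:**
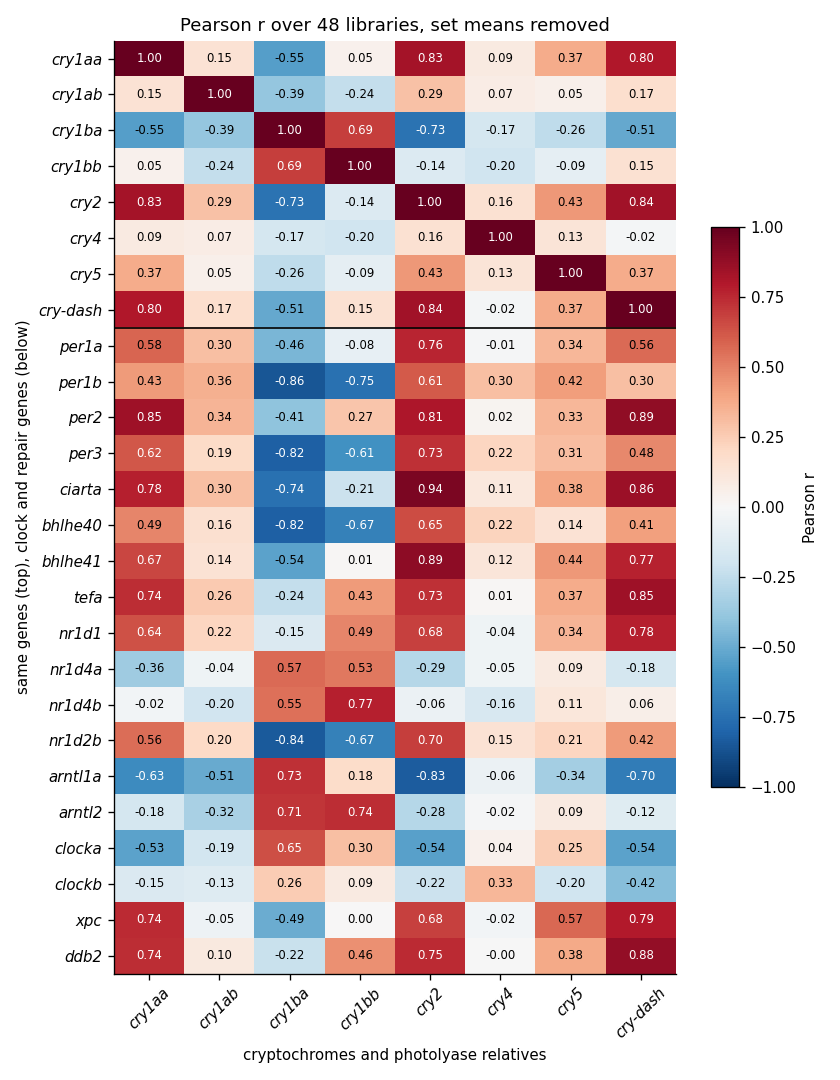
Pearson correlation of log2 values over 48 libraries, set means removed, between the 8 family members (columns) and the same genes and chosen clock and repair genes (rows); red is positive and blue negative. cry1aa, cry2 and cry-dash form one block (0.80 to 0.84), cry1ba and cry1bb another (0.69), and cry4 runs from -0.20 (cry1bb) to 0.33 (clockb) with the other genes shown.

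Other genes of the clock and of DNA repair were read from lists chosen with earlier results of these data known. All 4 period genes, partners of the cryptochromes in the repressor complex, were lower at 36 hpl than at 24 hpl: per3 by -4.001 on the log2 scale, per1b -2.90, per1a -2.70 and per2 -2.11. All 4 were also lower than at 72 hpl. Of all tested genes 6.52% were lower against 24 hpl and 3.59% against 72 hpl. Their median against 24 hpl was -2.80 and that of all tested genes 0.21.

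Of the 6 clock activators tested, 4 were higher at 36 than at 24 hpl and none lower: arntl2 by 3.30, arntl1a 2.02, clocka 1.57 and clockb 0.73, with a median of 1.15 over the list. In this comparison 13.8% of all tested genes were higher and 6.52% lower. Of 10 genes of the nuclear receptor loop, which sets bmal transcription, 2 were higher (nr1d4a 3.37 and nr1d4b 2.81) and 4 lower, led by nr1d2b at -2.65 and rorab at -1.96. Of 13 D-box and E-box regulators tested, 3 were higher, led by nfil3-5 (2.61), and 8 lower, led by ciarta (-4.85) and bhlhe40 (-4.66), both repressors that act at E-boxes.

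Of 11 genes for the turnover of Cryptochrome and Period proteins, 3 were higher at 36 than at 24 hpl: cul1b (1.102), fbxl3a (0.83), related to the mammalian ubiquitin ligase subunit that marks cryptochromes for destruction, and fbxw11b (0.55). The kinase gene csnk1da was lower (-1.36). Beside the 13.8% higher and 6.52% lower of all genes, the list's median was 0.29 and that of all genes 0.21. Calls of listed genes under the rescalings, which lower values of this comparison, are not given here. Of 13 DNA repair genes tested, 4 were higher at 24 hpl than at 0 h and none lower: the lesion-recognition genes ddb2 (4.51) and xpc (1.77), neil1 (1.23) and ercc3 (0.99). Of all genes 8.37% were higher and 7.14% lower, and the median of the list was 0.04, against -0.07 for all genes. Between 24 and 36 hpl ddb2 (-1.73) and xpc (-1.68) were lower and rad23b was higher (0.50).

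Markers of some retinal cell types moved over the same time-points. Ranges at 0 h and 36 hpl overlapped for 8 amacrine and ganglion markers (5016 to 5790 and 4615 to 5653). They also overlapped for 5 horizontal cell markers (674 to 947 and 589 to 896) and 7 Mueller glia markers (3890 to 4851 and 2871 to 5479). At 72 hpl the horizontal cell sums (490 to 623) lay below those of 0 h. The summed level of 11 cone markers was 94636 to 148156 at 0 h, 55058 to 129132 at 24 hpl, 39882 to 70520 at 36 hpl and 32838 to 108350 at 72 hpl. Its median was 127612 at 0 h, 94825 at 24 hpl, 53625 at 36 hpl and 100316 at 72 hpl. At 5, 10, 14 and 28 dpl the cone median was 101706, 108634, 115120 and 108695. The summed level of 7 rod markers was 59117 to 71852 at 0 h, 25153 to 48456 at 24 hpl and 33509 to 71755 at 36 hpl. It was 12683 to 51361 at 72 hpl and 12095 to 22547 at 28 dpl. The 6 bipolar markers summed to 1416 to 1819 at 36 hpl, above the ranges at 0 h (1038 to 1388) and 72 hpl (873 to 1293), and to 954 to 1417 at 24 hpl. Members of this list moved in opposite directions. Every 36 hpl library was above all 24 and 72 hpl libraries for vsx1, and below them all for cabp5a. Their log2 changes against the mean of 24 and 72 hpl were 1.32 and -1.51. Cone genes were divided as well, so the cone sum does not stand for all of them. Among the listed cone markers, pde6c was below all 24 and 72 hpl libraries at 36 hpl (-3.35). The cone opsin genes opn1lw1 (3.42), opn1mw3 (3.44) and opn1mw4 (3.35), which are not on the list, were above them all. The summed level of 8 pigment epithelium markers was 1643 to 3564 at 0 h and at least 3519 in every light library, and 10 microglia markers held 1182 to 2367 at 0 h and 3113 to 5532 at 10 dpl. The 11 lens markers summed to at most 71.8 in any library. The part of cell composition in the changes of the cryptochromes was not tested.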

How the data were processed

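Retinal RNA libraries (QuantSeq, which reads transcript 3′ ends) were aligned by the authors with STAR to build dR10, counted with HTSeq and adjusted with edgeR. The deposited values are pseudocounts, a signal in count-like units at a common library size. Versions, annotation and strand setting were not given in the sources used here. The deposited values are not raw counts, and whole reads could not be recovered, so no count model was run. Rows whose symbols had turned into dates (12, or 0.128% of the signal) were left out.

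Values were tested as log2(value + 1) with limma 3.58.1 in R 4.3.3, with terms for time-point and library set (39 residual degrees of freedom), a mean-variance trend, and Benjamini-Hochberg adjustment over 11395 genes with 5 or more in 6 or more libraries. Genes under an adjusted p of 0.05 are said to be called. The script was tested on simulated data. The family, the gene lists and the tests were chosen with earlier results of these data known, and p-values are read accordingly. All 8 members are described. From other lists, counts are given with up to 4 genes of largest change that passed, and for each member the 3 most correlated genes. Replicates are separate fish. Alternatives covered the pseudocount, filter, scaling, model terms, thresholds, single library sets and each library left out. No sequences are shown, since no genome of the authors' build was used here.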

Additional observations from a re-analysis of the deposited data

Results flagged for a closer look

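In 64 groups of 6 libraries (8 genes at 8 time-points), 8 had a library whose gap to its nearest neighbour exceeded Dixon's 95% limit of 0.625 of the group's range. A rate of 5% by chance would hold for independent, normally distributed values. These were pseudocounts without log transformation, and the groups of different genes share the same 48 libraries, so the count was not tested against that rate. At 24 hpl, replicate 1 held 2401 of cry2 (others 766 to 1122) and 104 of cry1ab (others 42.2 to 60.9). Its cone markers summed to 55058 and its pigment epithelium markers to 3519, the lowest of that group. Without it the 24 hpl changes from 0 h were 2.65 for cry2 and 1.11 for cry1ab, both called. Replicate 2 of 24 hpl held 204 of cry-dash (others 76.7 to 107) and 362 of cry1bb (others 222 to 269), and without it these changes were 4.36 and 1.32, both called.

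At 28 dpl, replicate 5 held 962 of cry1ba (others 1880 to 2242); its amacrine and ganglion markers summed to 3281, the lowest of the 48 libraries. At 36 hpl, replicate 1 held 19.5 of cry-dash (others 6.53 to 10.8). The other 2 were in cry4, near the floor of the table: 9.61 in 10 dpl replicate 4 and 4.66 in 28 dpl replicate 1.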

How the results depend on the processing

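Of 64 calls on single genes (cry4 and the set interactions apart), 42 held under every alternative run. The 64 include 7 calls of the F test, which has no direction, and none of the others changed direction. The counts of genes called at 36 hpl against 72 hpl, and against the mean of 24 and 72 hpl, stayed at 5 throughout, and those at 24, 36 and 72 hpl and at 5 and 10 dpl against 0 h stayed within 1.5 times. At 14 dpl 5 genes fell to 2 in library set 2 alone and 3 with a fold of at least 2, and at 28 dpl 6 fell to 3 in set 2 alone. Between 24 and 72 hpl the count of 2 was 1 with no filter, time-point alone, no variance trend, set 1 alone, without the 0 h libraries of unsettled replicate or with a fold of at least 2, and 0 in set 2 alone or at an adjusted p under 0.01; it ran from 0 to 3 with single libraries left out, at 0 without 24 hpl replicate 1, 4 or 6 or 72 hpl replicate 2 or 6. Between 5 and 28 dpl the count of 5 was 3 with no filter, upper quartile rescaling or set 2 alone, 2 with time-point alone, no variance trend, an adjusted p under 0.01 or a fold of at least 2, and 0 in set 1 alone; it ran from 2 to 5 with single libraries left out, at 2 without 5 dpl replicate 1, 3, 4, 5 or 6 or 28 dpl replicate 3 or 6. Fits within a single set also had fewer libraries. Shares of all genes are given for the main fit only, so counts under an alternative were not set against the overall rate of calls there. The cause of these shifts in the counts was not tested.

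These uncalled values changed sign. For cry1aa, 36 hpl against 0 h was -0.024 under median-of-ratios, -0.012 under upper quartile and -0.15 in set 2 alone. In set 1 alone, cry1ab was -0.47 at 36 hpl and -0.063 at 72 hpl against 0 h, cry1ba 0.13 at 5 dpl, and cry5 -0.10 at 72 hpl, 0.59 at 14 dpl, 0.28 at 36 against 72 hpl and 0.35 at 28 against 5 dpl. In set 2 alone, cry1ab was 0.018 at 5 dpl, 0.010 at 10 dpl and 0.24 at 36 against 72 hpl. With single libraries left out, cry1ab ran from -0.0052 to 0.28 at 36 hpl against 0 h and from -0.25 to 0.043 against 72 hpl, and cry5 from -0.18 to 0.27 at 14 dpl against 0 h and from -0.37 to 0.032 at 36 against 72 hpl. The rescalings moved the median of all genes for 36 against 24 hpl from 0.21 to 0.01 and 0.02, a shift that lowers every value of that comparison by about as much.

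Replicate numbers did not pair the libraries (mean correlation of deviations -0.03 over 154 same-numbered pairs, 14 over 0.1). With the replicate block in place of the set, and without both A libraries of 0 h, the counts against 0 h in order of time were 6, 3, 4, 4, 5, 5 and 4. They were 6 for 36 against 24 hpl, 5 for 36 against 72 hpl, 5 for 36 hpl against the mean of both, 3 for 72 against 24 hpl, 4 for 28 against 5 dpl and 6 in the F test. Shares of all genes with the block are not given here, and set interactions were not refitted with it. Values of cry4, and of cry-dash at 0 h, lay under 10 in every library.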
